A study of Capra hircus with 21 samples.

Results

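Of the 19040 genes in the deposited table, 49 matched a symbol rule for nucleolar or nucleolus-linked ribosome assembly factors. These 49 genes are described here across all 21 libraries of the series. They were chosen by symbol, with earlier results of these data known. The rule took the UTP, NOP, NOL, RRP and TSR families, IMP3 and IMP4, and GNL2 and GNL3. It also took a fixed set of single names such as FBL, DKC1, NHP2, PES1, BOP1, NMD3 and NOB1. GAR1, NIP7 and LTV1, which the same rule names, matched no symbol in the deposited table. All 49 were annotated as protein coding. The symbols fell by known role into 3 proteins of the box C/D particles, 3 of the box H/ACA particles, the particle chaperone NOLC1, 17 factors of the small-subunit processome, 6 factors of later 40S maturation, 14 factors of 60S assembly and the 60S export adaptor NMD3. The other 4 (NOL3, NOL4, NOL4L and NOL7) matched by name and were assigned no assembly role here.

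The libraries came from goat (Capra hircus). There were 7 groups of 3 libraries, lettered A to C: oocytes matured in vivo, and embryos developed in vivo of 2, 4, 8 or 16 cells, morulae and blastocysts. The labels name no treatment or genetic change in any group. Breed, animal age, the number of oocytes or embryos behind a library and the animals they came from are not in the labels, so p-values here reflect spread among these libraries alone, and that spread may be technical.

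Ribosomes are built in the nucleolus, where RNA polymerase I makes a long precursor RNA that is folded, chemically modified and cut while ribosomal proteins bind to it. Small nucleolar RNA-protein particles (snoRNPs) guide the modification: the box C/D class carries the methyltransferase FBL and the box H/ACA class carries the pseudouridine synthase DKC1. The small-subunit processome, built around the U3 snoRNA, handles the 18S part of the precursor, other factors assemble the large subunit, and both subunits are exported and finished in the cytoplasm. An oocyte carries a store of ribosomes and transcripts, and the embryo later replaces these with its own products, with a mature nucleolus forming when its genome becomes active.

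Values are given as RPM, read counts scaled to 1e6 reads of the library, obtained from the deposited RPKM by removing its offset of 0.01 and multiplying by the gene span in kb. RPM is not divided by length, so it compares 1 gene between libraries and not 1 gene with another. The depth implied by the smallest step between values gave 8.47 M (morula B) to 26.7 M (2-cell C) gene reads (M, 1e6) per library, and 3 reads corresponded to 0.0450 to 0.125 RPM. Stage markers followed the labels in part. GDF9, an oocyte growth factor, was at 137 to 179.99 RPM in the oocyte libraries and at most 0.142 RPM in blastocysts. It was higher still from 2 to 8 cells, at 348 to 664 RPM. The other oocyte markers, BMP15, MOS and ZP4, were also higher in every oocyte library than in any blastocyst library. KRT8, a trophectoderm keratin, was at 0 in oocytes and at 766 to 1337 RPM in blastocysts. CDX2 was highest in blastocysts, but at most 1.35 RPM. GATA3 overlapped between 2-cell and blastocyst libraries. TFAP2C was lower in blastocysts (0.684 to 3.71 RPM) than in 16-cell and morula libraries (6.66 to 14.4 RPM). Oocyte transcripts were higher in library C of 2 stages: GDF9 stood at 17.5, 24.1 and 143 RPM in 16-cell libraries A, B and C, and at 1.32, 1.58 and 27.5 RPM in the morula libraries. Of 6 cumulus markers found, 4 were under 1 RPM in every library. The other two were TNFAIP6, at up to 40.9 RPM in 16-cell A and 38.7 RPM in morula C, and PTGS2, at up to 33.3 RPM in blastocyst A. Of 4 oviduct and uterine epithelium markers found, 3 were under 1 RPM in every library and EPCAM reached 46.2 RPM in blastocyst C. The 3 blood markers found summed to at most 3.78 RPM, with CD68 at up to 2.42 RPM, PTPRC at up to 1.11 RPM and CD74 at up to 0.402 RPM. The part of these transcripts in the results below was not tested.

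The summed level of the 49 genes was highest in morulae and lowest in blastocysts. Genes with many reads weigh most in it, with NMD3 at a mean of 613 RPM in 8-cell embryos and UTP11 at 568 RPM in morulae. The sum was 1661 ± 313 RPM (SD, n = 3) in oocytes, 2400 ± 82.3 in 2-cell, 2042 ± 241 in 4-cell, 2229 ± 345 in 8-cell and 2326 ± 286 in 16-cell embryos, 2810 ± 58.0 in morulae and 945 ± 606 in blastocysts. As a share of the reads that fell in listed genes, the 49 took 0.466% in oocytes, 0.794% in morulae and 0.297% in blastocysts. The 3 blastocyst libraries spread widely, at 645, 548 and 1642 RPM for A, B and C. In bulk libraries of whole embryos, fewer cells expressing a gene and less RNA per cell cannot be told apart. The morula was the stage of highest mean for 24 of the 49 genes (49.0%, against 16.7% of all genes tested). Another 9 genes (18.4%, against 23.2%) were highest at the 8-cell stage, and the oocyte and the blastocyst were each the lowest stage of 19 genes (38.8%), against 22.5% and 48.9% of all genes tested.

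**Figure D1:**
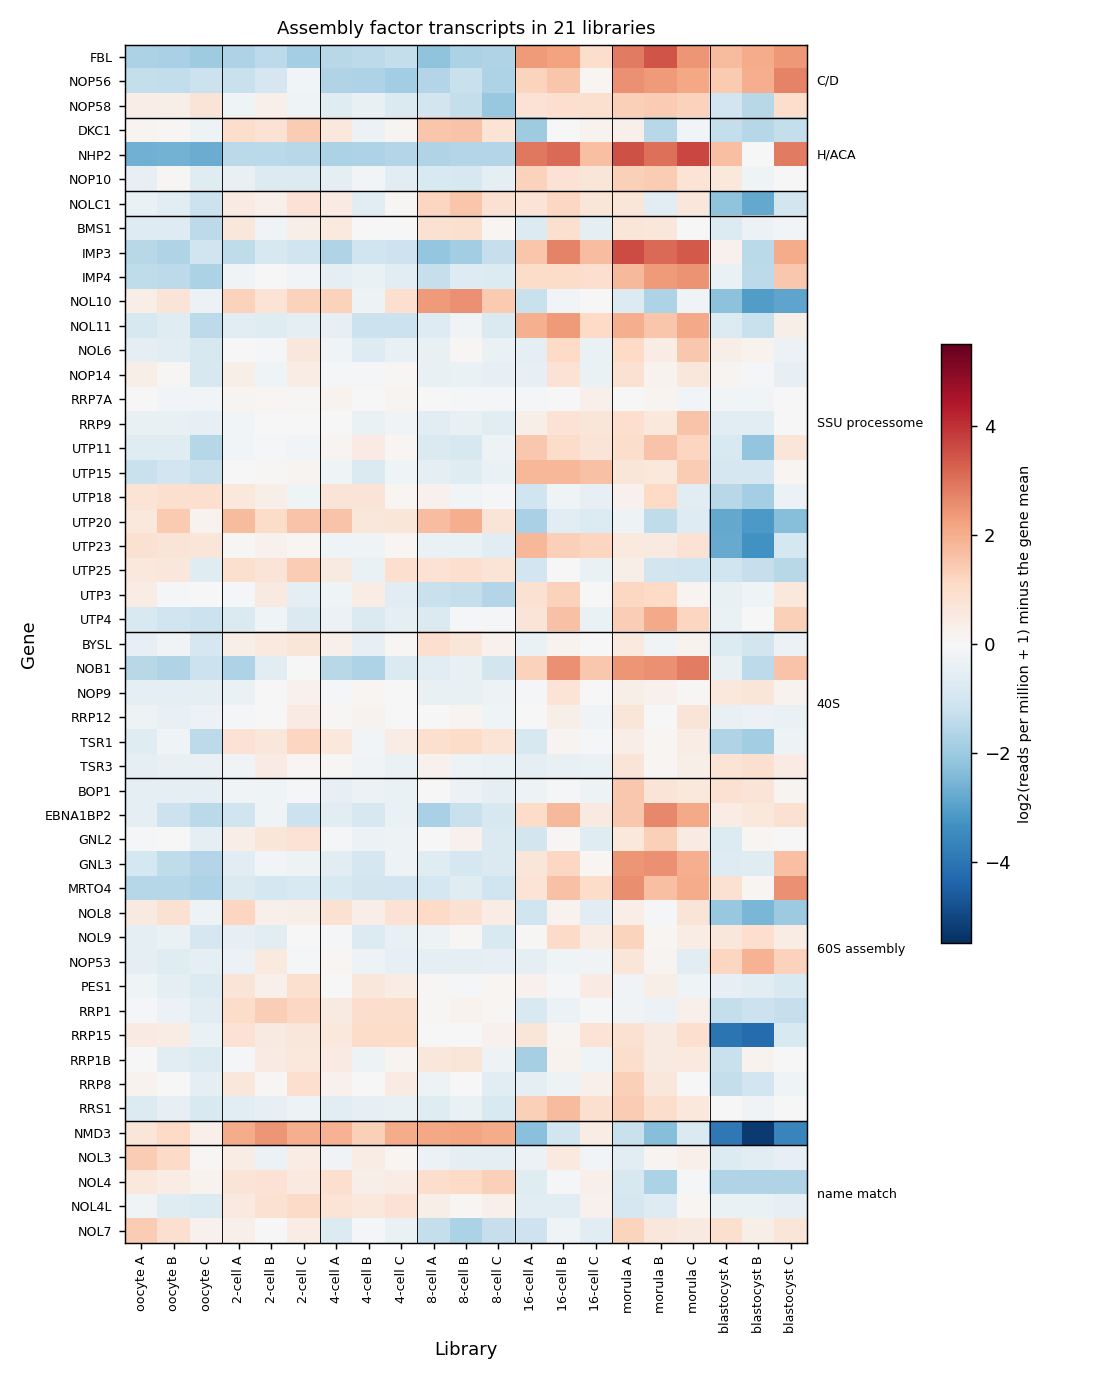
Level of the ribosome assembly genes in the 21 libraries, as log2(RPM + 1) minus the mean of each gene, with genes in rows grouped by role and libraries in columns by stage. The box C/D genes, NHP2, NOP10 and IMP3 are above their mean in all 16-cell and morula libraries, whereas NMD3 and UTP20 are above their mean in every library up to the 8-cell stage.

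Changes between stages were tested in limma on log2(RPM + 1) in 1 model of all 21 libraries, with Benjamini-Hochberg adjustment over the 10384 genes that reached 1 RPM in 3 or more libraries. A gene is called at an adjusted p below 0.05 and a change of at least 1 on the log2 scale. Of the 49 genes, 47 passed this filter. RRP12, a factor of small-subunit export, stayed between 0.064 and 1.32 RPM, and RRP7A, a processome subunit, between 0 and 0.349 RPM, so neither was tested. Over the 6 consecutive steps together, limma's moderated F test called 45 of the 47, where 92.5% of all genes tested were called. The 2 genes it did not call were RRP1B (adjusted p = 0.101) and NOP14 (adjusted p = 0.196).

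The step from 8 to 16 cells and the step from morula to blastocyst held most of the calls. Between the 8-cell and 16-cell stages 18 of 47 genes rose and 8 fell, whereas 15.4% of all genes tested rose and 30.7% fell. The median change of the 47 was 0.44 on the log2 scale against -0.52 over all genes tested, and 34 of the 47 lay above the median gene. Quantile normalization and median-ratio size factors, which move the median of all genes toward 0, gave 21 rises and 4 falls each, with the members' median 0.86 and 0.84 above that of all genes, against 0.97 here. In 21 genes all 3 16-cell libraries were above all 3 8-cell libraries, and in 12 genes all were below, where 20.9% and 43.8% of all genes tested did so. From morula to blastocyst 26 genes fell and 1 rose, whereas 28.1% of all genes tested fell and 7.74% rose. From oocyte to 2-cell 7 genes rose and none fell (14% and 0.482% of all genes), and from 16-cell to morula 6 rose and none fell (9.44% and 7.59%). Neither step from 2 to 8 cells held a called member.

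The box C/D proteins were the clearest rising group: all 3 rose between 8 and 16 cells. FBL, the methyltransferase that adds the 2'-O-methyl marks, lies on chromosome 18 at 50278828 to 50286021 (minus strand, coordinates as the table gives them, build not given in the sources used here). Its levels were 1.01, 0.938 and 0.684 RPM in the oocyte libraries A, B and C, 1.02, 1.46 and 0.811 in 2-cell, 1.28, 1.41 and 1.70 in 4-cell and 0.429, 0.957 and 1.10 in 8-cell libraries. They were 32.5, 29.6 and 12.004 RPM at the 16-cell stage, 46.3, 72.8 and 34.9 in morulae and 21.1, 26.0 and 33.3 in blastocysts. All 12 libraries up to 8 cells were thus at or below 1.70 RPM, and all 9 later ones were at or above 12.004 RPM, with no overlap. From 8 to 16 cells the mean went from 0.830 ± 0.355 to 24.7 ± 11.1 RPM (SD, n = 3), a ratio of 29.7 and a log2(RPM + 1) change of 3.71 ± 0.37 (SE, adjusted p = 8.66e-08).

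NOP56 and NOP58 are the paired scaffold proteins of the same particle. NOP56 (chromosome 13, 51867946 to 51873136, minus strand) stayed between 6.39 and 23.9 RPM in the 12 libraries up to 8 cells, the highest being 2-cell library C. It stood at 63.5, 79.2 and 28.7 RPM in the 16-cell libraries, 159, 139 and 122 in morulae, and 74.5, 109.9 and 183 in blastocysts. Its 8-cell and 16-cell libraries did not overlap, and the change was 2.45 ± 0.41 (SE, adjusted p = 6.65e-05). NOP58 (chromosome 2, 45107915 to 45130537, minus strand) started high and declined before it rose: 188, 181 and 234 RPM in oocytes, 124, 178 and 124 in 2-cell, 90.6, 108 and 84.0 in 4-cell and 70.9, 58.4 and 33.6 in 8-cell libraries. It then stood at 253, 278 and 264 RPM in 16-cell libraries, 359.7, 381 and 351 in morulae, and 69.8, 49.9 and 285 in blastocysts. No single step of the early decline was called, and the 16-cell rise was 2.33 ± 0.47 (adjusted p = 0.000391). Summed over the 3 genes, the box C/D level went from 64.0 ± 19.4 RPM in 8-cell to 347 ± 41.3 in 16-cell embryos and 555 ± 43.2 in morulae.

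The box H/ACA proteins did not move together at that step: NHP2 and NOP10 rose and DKC1 fell. NHP2, which binds the guide RNA in these particles (chromosome 7, 71372945 to 71376562, plus strand), was at 0.228, 0.277 and 0.166 RPM in oocytes and at 1.34 to 1.78 RPM in the 9 libraries from 2 to 8 cells. Its 16-cell libraries were at 57.4, 66.0 and 23.3 RPM, morulae at 86.6, 62.6 and 96.9, and blastocysts at 23.3, 6.91 and 55.8. The 8-cell libraries lay tightly at 1.53 ± 0.0748 RPM and the 16-cell libraries at 48.9 ± 22.6 (SD, n = 3), a ratio of 31.9 and a change of 4.17 ± 0.49 (adjusted p = 8.36e-07), the largest rise among the 47. NOP10, the smallest protein of the particle (chromosome 10, 74745870 to 74746635, minus strand), was low throughout. It stood at 0.493, 1.13 and 0.259 RPM in oocytes, 0.543, 0.197 and 0.195 in 2-cell, 0.413, 0.795 and 0.344 in 4-cell and 0.143, 0.0832 and 0.412 in 8-cell libraries. It then reached 3.81, 2.46 and 2.19 RPM at 16 cells and 3.99, 4.25 and 2.38 in morulae, above every earlier library, before 2.03, 0.719 and 1.02 in blastocysts. Its 16-cell rise was 1.64 ± 0.27 (adjusted p = 5.74e-05), a value that depends on the added 1 RPM because the 8-cell levels rest on few reads.

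DKC1, the pseudouridine synthase itself, lies on an unplaced scaffold and had another course. Its levels were 24.1, 22.8 and 17.6 RPM in oocytes, 43.3, 38.1 and 57.7 in 2-cell, 32.4, 17.1 and 24.0 in 4-cell and 63.0, 65.6 and 36.7 in 8-cell libraries. The 16-cell libraries were lower, at 4.75, 21.4 and 24.8 RPM, morulae were at 26.4, 6.71 and 19.1, and blastocysts at 8.02, 6.46 and 7.92. The 3 8-cell libraries were above all 9 later ones. The fall from 8 to 16 cells was -1.87 ± 0.50 (adjusted p = 0.00411), and it was -1.18 (adjusted p = 0.0479) without 16-cell library A. NOLC1, a chaperone that brings snoRNPs together, did not pass the test at this step: 96.0, 119 and 74.1 RPM in 8-cell and 70.9, 91.9 and 66.5 RPM in 16-cell libraries overlapped (log2 change -0.32, adjusted p = 0.561).

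**Figure D2:**
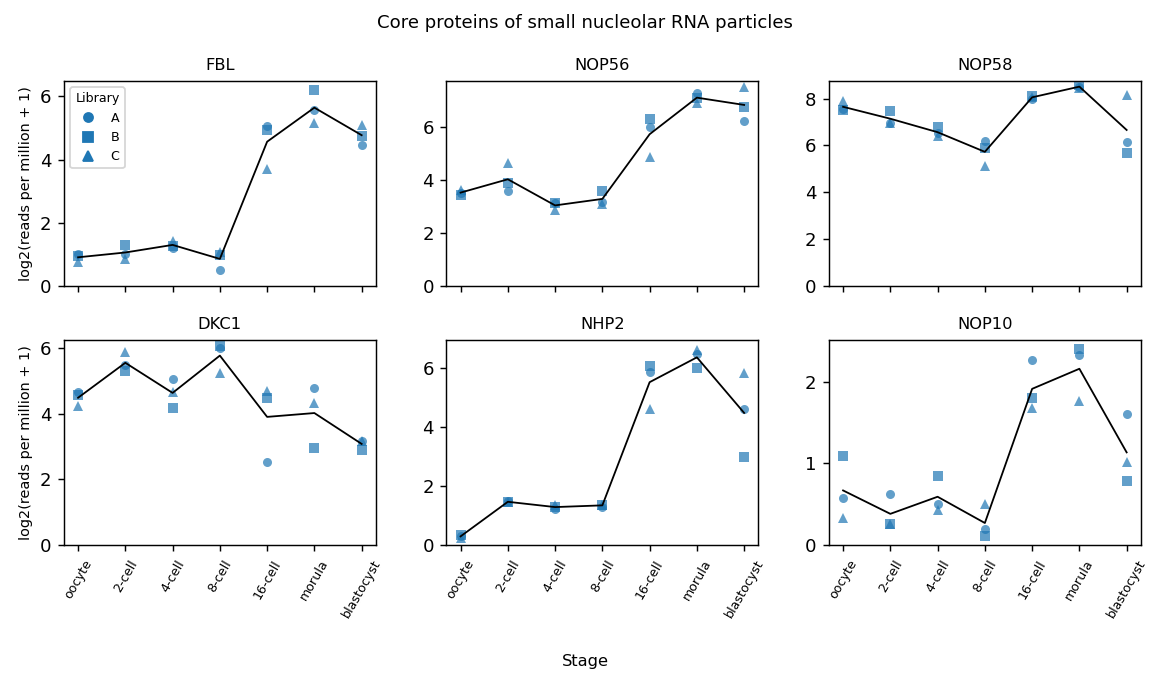
Level of the 6 snoRNP proteins by stage, as log2(RPM + 1), with a point for each library (shape for its letter) and a line through the stage means. FBL and NHP2 lie near the floor up to 8 cells and high from 16 cells on, NOP58 dips to its lowest at 8 cells, and DKC1 has its highest stage mean at 8 cells.

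In the small-subunit processome 8 of the 16 genes tested rose between 8 and 16 cells and 3 fell, with a median change of 1.07. IMP3 and IMP4 are partners that bind the U3 snoRNA. IMP3, a gene of 0.555 kb (chromosome 21, 32696924 to 32697479, plus strand), stood at 0.393, 0.603 and 1.497 RPM in 8-cell libraries, after 0.938 to 2.34 RPM in the 9 libraries before them. At the 16-cell stage it was at 16.4, 38.8 and 18.8 RPM, in morulae at 71.8, 51.0 and 62.4, and in blastocysts at 6.07, 1.18 and 24.2. The 16-cell libraries all lay above the 8-cell ones, by a ratio of means of 29.7 and a change of 3.75 ± 0.55 (adjusted p = 1.67e-05). IMP4 rose by 1.89 ± 0.46 (adjusted p = 0.00182), from 1.20, 2.23 and 2.08 to 9.51, 9.58 and 9.05 RPM; 1092 bases of its span overlap an unnamed gene on the other strand, and whether the counting used strand is not given in the sources used here.

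The other risers of the processome included subunits of its first-binding UTP-A complex. NOL11, which works in that complex, went from 13.2, 19.2 and 12.2 RPM in 8-cell to 87.7, 117 and 47.6 RPM in 16-cell libraries (change 2.36, adjusted p = 0.000128). UTP15, another subunit of it, went from 8.94, 8.26 and 10.3 to 50.6, 50.6 and 43.1 RPM (2.27, adjusted p = 2.91e-05). The 16-cell libraries of UTP15 lay close together and far above the 8-cell ones. UTP4, of the same complex, was at 5.41, 9.20 and 9.08 RPM and then at 17.2, 32.7 and 7.56 RPM; the groups overlapped and the change did not pass the test (0.998, adjusted p = 0.0718). UTP3, a short gene of 1.425 kb, went from 10.3, 9.72 and 7.81 to 46.9, 62.8 and 25.3 RPM (2.08, adjusted p = 0.000449). UTP11 and UTP23 rose by 1.72 and 1.89, and RRP9, a U3 particle protein, by 1.14 at levels of 1.19 to 1.99 RPM. Of the 8 processome risers, UTP23 and UTP3 had been higher in all 3 oocyte libraries (241 to 269 RPM for UTP23, 23.8 to 34.1 RPM for UTP3) than in any 8-cell library (98.0 to 117 RPM and 7.81 to 10.3 RPM).

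The 3 processome genes that fell were UTP20, NOL10 and UTP25. UTP20, a very large HEAT-repeat protein (chromosome 5, 63835129 to 63921896, plus strand), was at 492, 597 and 249 RPM in 8-cell and at 42.7, 100.4 and 88.8 RPM in 16-cell libraries, a change of -2.51 ± 0.47 (adjusted p = 0.000201). NOL10, the counterpart of yeast Enp2 (chromosome 11, 86573271 to 86662178, plus strand), was at 118, 131 and 62.8 RPM and then at 8.99, 19.8 and 22.3 RPM (-2.56 ± 0.48, adjusted p = 0.000230). In both genes every 8-cell library was above every 16-cell library. UTP25 fell by 1.31 (adjusted p = 0.0167) but did not pass without 16-cell library A (adjusted p = 0.0963). BMS1, the GTPase of the processome, UTP18, NOL6 and NOP14 changed by -0.73, -0.58, 0.30 and 0.40, none of which passed the test.

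Among the 5 later 40S factors tested, 1 rose and 1 fell. NOB1, the nuclease that makes the last cut of 18S rRNA, went from 5.18, 6.22 and 3.82 RPM in 8-cell to 21.9, 54.1 and 25.7 RPM in 16-cell libraries, without overlap (2.43 ± 0.55, adjusted p = 0.00116). TSR1, a factor that blocks early joining of the subunits, went from 34.6, 38.2 and 31.3 to 9.49, 20.7 and 17.2 RPM (-1.15, adjusted p = 0.0275); it lost its call without 8-cell library A, 8-cell library B or 16-cell library A (highest adjusted p = 0.144). BYSL, NOP9 and TSR3 did not pass, with changes of -0.66, 0.60 and -0.31.

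Of the 14 60S assembly genes 4 rose and 1 fell, and the median change was 0.16. EBNA1BP2, a nucleolar scaffold factor, went from 5.45, 8.43 and 11.0 to 43.5, 75.5 and 30.2 RPM (2.39 ± 0.43, adjusted p = 0.000130). MRTO4, a placeholder for the ribosomal stalk protein, went from 0.840, 1.23 and 0.693 to 5.06, 10.1 and 6.14 RPM (2.04, adjusted p = 0.000408). In both genes the 16-cell libraries were all above the 8-cell libraries. RRS1, which helps to load the 5S particle, was at 0.107, 0.375 and 0 RPM in 8-cell libraries and at 3.36, 4.90 and 2.21 RPM in 16-cell libraries (1.92, adjusted p = 1.90e-06). GNL3, the GTPase nucleostemin, went from 21.5, 17.1 and 19.1 to 55.7, 78.0 and 37.5 RPM (1.47, adjusted p = 0.0135), and missed the threshold without 16-cell library B (adjusted p = 0.0693). NOL8 went the other way, from 244, 209 and 154 to 53.7, 130.3 and 74.1 RPM (-1.30, adjusted p = 0.0112), a call that was lost without 8-cell library A (adjusted p = 0.0510) or 16-cell library A (adjusted p = 0.0703). PES1 and BOP1, the core of the PeBoW complex, changed by 0.16 and 0.07 and did not pass.

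NMD3, the adaptor that carries new 60S subunits to the export receptor (chromosome 1, 105648482 to 105743358, minus strand), showed the largest fall. Its levels were between 170.1 and 755 RPM in the 12 libraries up to 8 cells, and the 8-cell libraries held 615, 644 and 580.5 RPM. The 16-cell libraries were at 27.7, 69.0 and 188 RPM, morulae at 58.7, 26.7 and 81.1, and blastocysts at 8.28, 2.63 and 10.5. Thus 16-cell library C alone came above the lowest oocyte library, and every 8-cell library stood above every later one. From 8 to 16 cells the mean fell from 613 ± 32.0 to 94.8 ± 83.2 RPM (SD, n = 3), 6.47-fold lower (-3.08 ± 0.55, adjusted p = 0.000132). Among the 4 name matches, NOL4, a nucleolar protein known from nervous tissue, fell by 1.28 (adjusted p = 0.00370), and NOL3, NOL4L and NOL7 did not pass. Without these 4, the step held 18 rises and 7 falls among 43 genes.

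**Figure D3:**
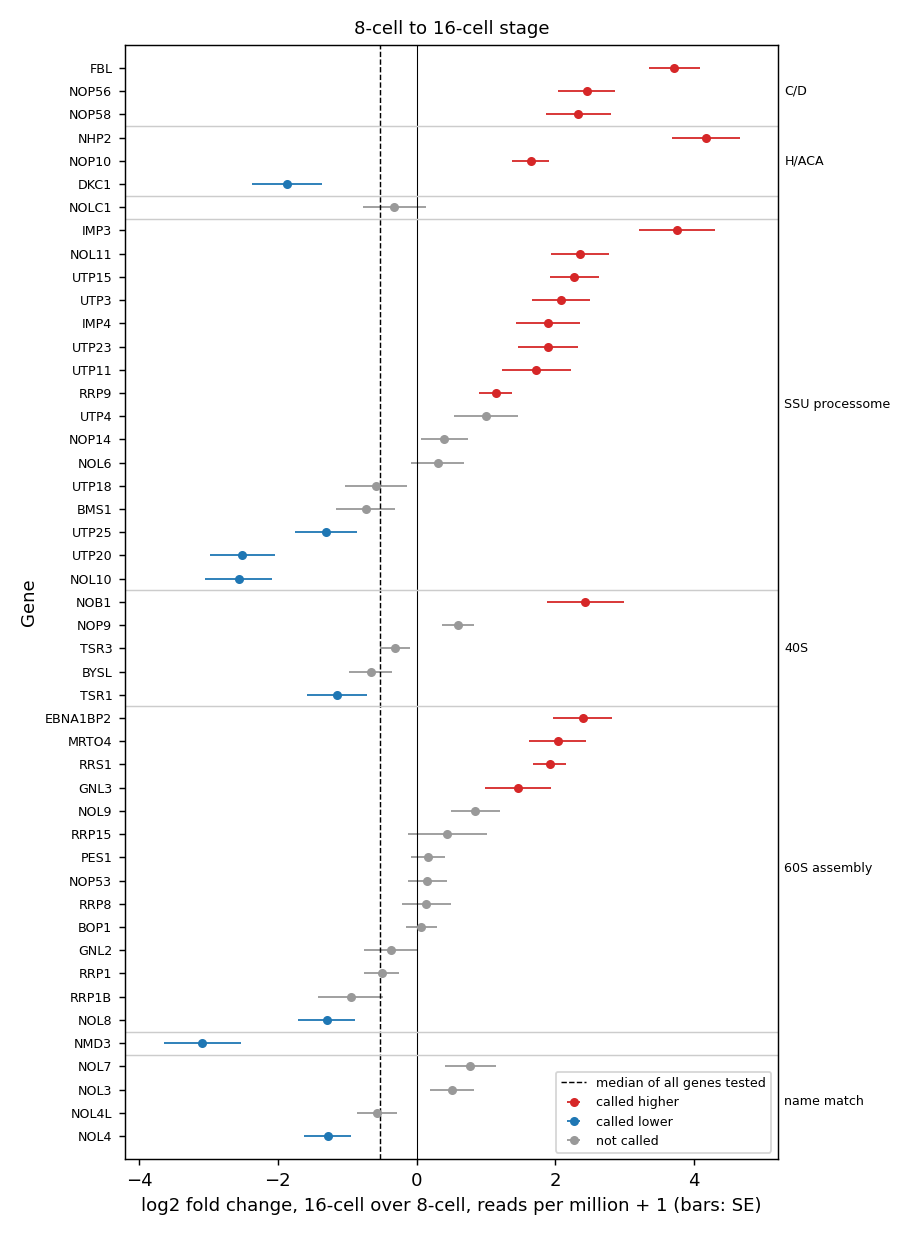
Change from the 8-cell to the 16-cell stage for the 47 genes tested, as the log2(RPM + 1) difference with bars of 1 standard error, coloured by call, with a dashed line at the median of all genes tested (-0.52). NHP2, IMP3 and FBL lie furthest to the higher side, and NMD3, NOL10 and UTP20 furthest to the lower side.

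Of the 18 rises at this step, 17 kept their call without each library in turn (GNL3 did not), and 13 kept it under every alternative run as well: FBL, NOP56, NOP58, NHP2, IMP3, UTP3, UTP11, UTP15, UTP23, NOL11, NOB1, EBNA1BP2 and MRTO4. Of the 8 falls, 4 kept it throughout (NMD3, UTP20, NOL10 and DKC1). Library 16-cell C, whose oocyte transcripts were high, was the lowest of the 3 16-cell libraries in 13 of the 18 rising genes (72.2%, against 69.8% of all rising genes) and the highest in 4 of the 8 falling genes (50%, against 87.4%). Leaving out libraries C of the 16-cell and morula stages, which earlier results of these data had shown to be high in oocyte transcripts, gave 19 rises and 8 falls, with 16.6% and 38.6% of all genes tested.

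The rising and falling members also differed in the length of the gene on the chromosome. The 18 rising members had a median span of 6.81 kb (0.555 to 22.6 kb), the 21 not called 14.0 kb, and the 8 falling 57.6 kb (8.77 to 466 kb). The same order was present among all genes tested, with medians of 9.42 kb for rising, 19.4 kb for uncalled and 47.0 kb for falling genes. All but one of the falling members were longer than 14 kb, TSR1 at 8.77 kb being the exception. The part of gene length in these changes was not tested.

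**Figure D4:**
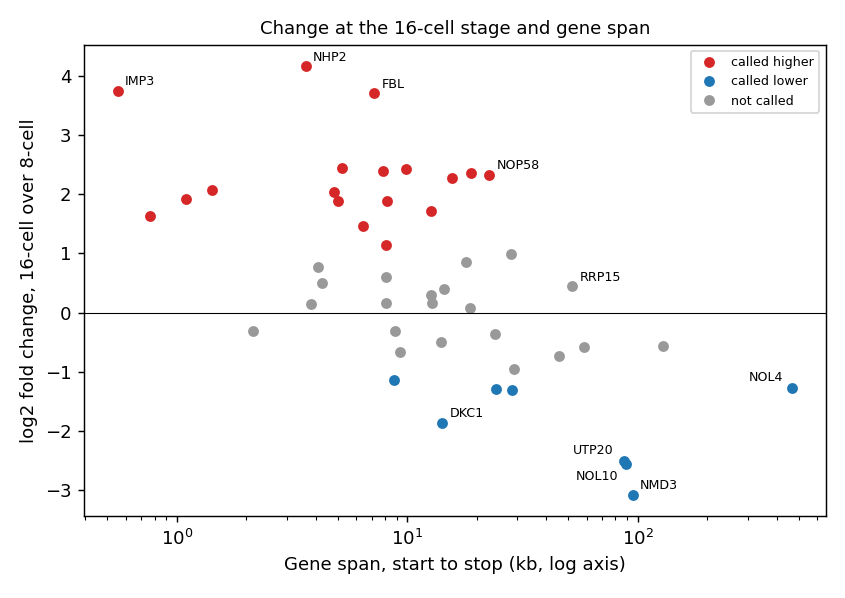
Change from the 8-cell to the 16-cell stage, as the log2(RPM + 1) difference, against the span of each gene in kb on a log axis, coloured by call. The rising genes lie between 0.555 and 22.6 kb, and NMD3, NOL10, UTP20 and NOL4 are both long and lower.

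From 16-cell to morula 6 genes rose (12.8%, against 9.44% of all genes tested), with members at a median of 0.44 against -0.09 for all genes tested. They were box C/D genes NOP56 (1.39, adjusted p = 0.0206) and FBL (1.08, adjusted p = 0.0421), 60S genes GNL3 (1.67, adjusted p = 0.0178), GNL2 (1.33, adjusted p = 0.0197) and BOP1 (1.14, adjusted p = 0.00117), and the name match NOL7 (1.43, adjusted p = 0.00921). GNL3 was at 191, 201 and 141 RPM in morulae, above its 3 16-cell libraries. GNL2, a GTPase of 60S maturation, went from 8.61, 19.1 and 11.0 to 28.2, 47.2 and 25.2 RPM. BOP1 was at 0.176, 0.377 and 0.163 RPM and then at 2.996, 1.33 and 1.14 RPM, its first stage with every library above 1 RPM. Without its morula libraries BOP1 would not have passed the filter of 1 RPM in 3 libraries. The BOP1 call is thus not separate from that filter. NOL7 went from 2.73, 6.03 and 4.37 to 18.3, 11.5 and 10.4 RPM. In all 6 genes the morula libraries were above the 16-cell libraries, as they were in 12 of the 47 genes (2 were below), where 13.8% and 8.49% of all genes tested were separated in those directions. None of the 16 tested genes assigned to the small-subunit processome passed here. Of these, IMP3 (1.38, adjusted p = 0.0812) and IMP4 (1.22, adjusted p = 0.0630) were separated to the higher side. UTP15 (-0.87) and UTP23 (-0.83), also of the processome, were the 2 members separated to the lower side. UTP15 was called lower under median-ratio factors, under array weights and without libraries C of the 16-cell and morula stages, and UTP23 under quantile normalization.

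The 6 rises called from 16-cell to morula depended on which libraries were included. The number of called members ranged from 1 to 11 when each library was left out: 1 without morula A, 2 without 16-cell C, 2 without morula B, and 11 without 16-cell B or morula C. None of the 6 kept its call without every library in turn, and FBL lost it without any of 14 libraries (highest adjusted p = 0.228).

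Set against the 8-cell stage, morulae showed the sum of these steps. Of the 47 genes 22 were called higher and 6 lower (20.4% and 36.6% of all genes tested), with a median of 0.96 against -0.51. This comparison shares its libraries with those above and is no separate evidence. IMP3 (5.13), NHP2 (5.01) and FBL (4.79) had the largest differences, followed by NOP56 (3.84) and EBNA1BP2 (3.37). On the lower side were NMD3 (-3.58), NOL10 (-2.99), UTP20 (-2.28), NOL4 (-2.01), DKC1 (-1.75) and UTP25 (-1.43). In 28 genes all morula libraries were above all 8-cell libraries and in 9 all were below, where 25% and 44.1% of all genes did so.

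From morula to blastocyst 26 genes fell, in every role group except the name matches. The median change was -1.07 against -0.50 for all genes tested. In 32 of the 49 genes, the untested RRP12 among them, the blastocyst libraries were all below the morula libraries. In 1 all were above (31.2% and 8.76% of all genes tested). RRP15, a 60S assembly factor (chromosome 16, 20278646 to 20330580, plus strand), fell most: 102, 79.0 and 106 RPM in morulae against 2.58, 2.07 and 30.7 RPM in blastocysts (-3.77 ± 0.57, adjusted p = 1.90e-05). It had been at 43.7 to 116 RPM in all 18 earlier libraries, so this was its only called step. UTP23, which helps to release a snoRNA from the precursor (chromosome 14, 34507495 to 34512509, plus strand), went from 218, 213 and 258 to 20.98, 13.8 and 75.5 RPM (-2.98 ± 0.44, adjusted p = 1.36e-05). IMP3 fell by 3.09 ± 0.55 (adjusted p = 0.000132) and NMD3 by 2.82 ± 0.55 (adjusted p = 0.000315), with the values given above and no overlap in either gene.

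In the processome 11 of 16 genes fell (median -1.47): IMP3, IMP4, UTP23, NOL11, UTP11, UTP20, NOL10, UTP18, UTP15, RRP9 and UTP4. Of 14 60S assembly genes 8 fell and 1 rose (median -1.04). NOL8 fell from 151, 108 and 188 to 26.1, 19.4 and 27.8 RPM (-2.54 ± 0.41, adjusted p = 4.25e-05), and GNL3 from 191, 201 and 141 to 20.6, 21.4 and 112 RPM (-2.22). In both, the highest blastocyst library was below the lowest morula library. NOB1 and TSR1 were the 2 of the 40S factors that fell, by 2.68 and 1.57. Of the H/ACA genes NHP2 fell by 1.88 (adjusted p = 0.00367), or by 1.14 (adjusted p = 0.0424) without blastocyst B, and NOP10 by 1.02 (adjusted p = 0.00426), a call lost without morula A, morula B, blastocyst B or blastocyst C. NOLC1 went from 66.8, 26.8 and 64.5 to 8.19, 4.93 and 19.8 RPM (-2.26 ± 0.45, adjusted p = 0.000412).

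In the box C/D group 1 of 3 genes fell. This was NOP58 (-1.85 ± 0.47, adjusted p = 0.00301), in which blastocyst C, at 285 RPM, stood far above A and B. NOP56 did not pass (-0.28, adjusted p = 0.620), its libraries of the 2 stages overlapping, and FBL did not pass (-0.87, adjusted p = 0.0622), though its 3 blastocyst libraries were below the 3 morula ones. The 1 gene that rose was NOP53, a 60S factor that recruits the exosome to the precursor: 1.55, 0.791 and 0.0963 RPM in morulae and 2.70, 5.16 and 2.87 RPM in blastocysts (1.38 ± 0.28, adjusted p = 0.000433). Without its blastocyst libraries NOP53 would not have passed the filter of 1 RPM in 3 libraries. Its call is thus not separate from that filter. NOP53 was not called with a pseudocount of 5, and was not tested at a filter of 5 RPM or on the deposited RPKM scale. NOL7, NOL9, TSR3 and NOP9 had changes between -0.15 and 0.33 and did not pass.

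**Figure D5:**
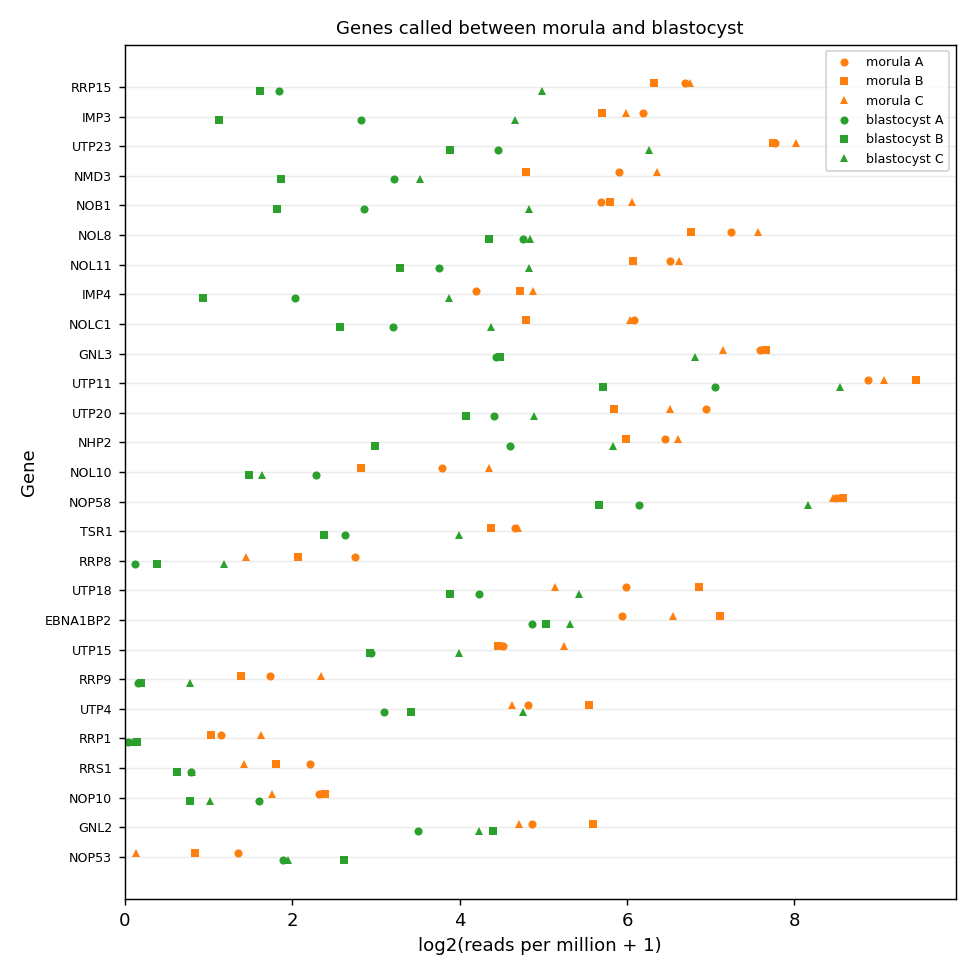
Level in each morula library (orange) and blastocyst library (green), as log2(RPM + 1), of the 27 genes called from morula to blastocyst. In most genes 1 blastocyst library, C, lies nearer to the morula libraries than the other two, and NOP53 is the 1 gene with higher blastocyst libraries.

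Blastocyst C was the highest of the 3 blastocyst libraries in 22 of the 26 falling genes (84.6%, against 61.2% of all falling genes). It also differed in the share of its reads that fell in listed genes, at 40.5%, compared with 24.4% in A and 24.9% in B, where 24.4% to 42.0% was the range over all libraries. Within the listed genes the 49 took 0.264%, 0.220% and 0.405% of reads in blastocysts A, B and C, against a mean of 0.794% in morulae. The part of these differences between libraries in the falls was not tested. Of the 26 falls, 21 kept their call without each library in turn, and the others were GNL2, NOP10, RRS1, UTP18 and UTP4. Under quantile normalization 14 genes fell and under median-ratio factors 15, as the median of all genes moved from -0.50 to -0.05 and -0.06. Relative to the median of all genes the members' median was -0.57 here and -0.39 and -0.48 under those scalings. GNL3, IMP3, IMP4, NOL11, NOL8, RRP15 and UTP23 kept their call under every alternative and without each library.

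Of the 18 genes that rose at 16 cells, 14 (77.8%) fell from morula to blastocyst, where 26 of all 47 members (55.3%) and 48.8% of the 1602 rising genes of the whole table fell. The 14 made up 53.8% of the 26, and the other 4 risers were FBL, NOP56, MRTO4 and UTP3. These 2 comparisons share no library. Of the 8 genes that fell at 16 cells, 5 (62.5%) fell again in blastocysts, a share near that of the 47 members, while 25.3% of the 3187 falling genes of the whole table did so. The 5 were NMD3, UTP20, NOL10, NOL8 and TSR1. The differences between these shares were not tested.

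The early steps changed fewer members. From oocyte to 2-cell 7 of 47 rose (14.9%), a share near the 14% of all genes tested that rose. The 7 were TSR1 (1.63, adjusted p = 0.0109), RRP1 (1.50, adjusted p = 0.000724), IMP4 (1.40, adjusted p = 0.0360), NOL4L (1.35, adjusted p = 0.00290), UTP15 (1.26, adjusted p = 0.0154), PES1 (1.13, adjusted p = 0.00413) and BYSL (1.03, adjusted p = 0.0239). TSR1 stood at 11.2, 15.7 and 6.18 RPM in oocytes and at 32.4, 28.7 and 42.8 RPM in 2-cell embryos. RRP1, a 60S factor, was at 1.37, 1.002 and 0.721 RPM and then at 4.11, 5.40 and 4.64 RPM. In 29 of the 49 genes, the untested RRP12 and RRP7A among them, the 2-cell libraries were all above the oocyte libraries. In 3 all were below, where 46% and 4.33% of all genes tested did so. The median gene itself was 0.46 higher in 2-cell embryos, and the members' median was 0.57. Relative to the median gene, TSR1 was higher by 1.18 and RRP1 by 1.04. Under scalings that bring the median gene near 0, quantile normalization called 0 rises and 1 fall (NOL3), and median-ratio factors called 0 rises and 3 falls (UTP23, NOL3 and NOL7). Without oocyte A 4 members were called, without oocyte C 3, without 2-cell C 2 and without blastocyst B 11, and only RRP1 and NOL4L kept their call without each library.

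Between 2 and 4 cells limma called no member and no other gene (0% of all genes tested), with 2 members and 326 genes at an unadjusted p below 0.05. All 4-cell libraries were above the 2-cell libraries in 1 member and below in 13, where 3.04% and 11.9% of all genes were so. Between 4 and 8 cells limma called no member, 0.289% of all genes as higher and 0.0963% as lower, with 6 members at an unadjusted p below 0.05 (lowest adjusted p = 0.277). In 6 of the 49 members the 8-cell libraries were all higher and in 18, the untested RRP7A among them, all lower. The shares of all genes tested were 17.7% and 12.5%. The members with the largest differences at that step were NOL10 (1.46), NOLC1 (1.20) and DKC1 (1.14) on the higher side and UTP3 (-1.23) and NOL7 (-1.02) on the lower side. Array weights, which give less weight to libraries that vary more, called these 5.

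The first and last stages differed in both directions. Of the 47 genes 14 were higher in blastocysts than in oocytes and 12 lower (20.8% and 36.6% of all genes tested). The median was 0.12 against -0.44 over all genes. NHP2 (4.18, adjusted p = 1.67e-07), FBL (3.87, adjusted p = 9.18e-09), NOP56 (3.32, adjusted p = 3.56e-07) and MRTO4 (2.78, adjusted p = 3.97e-06) were highest in blastocysts relative to oocytes and kept their calls throughout. NOP53 was higher by 2.01 (adjusted p = 1.71e-06), with the limit of the filter given above. TSR3 was higher by 1.14 and has the same limit. Without its blastocyst libraries TSR3 would not have passed that filter, so its call is not separate from the filter. On the lower side were NMD3 (-4.96, adjusted p = 8.18e-08), UTP20 (-3.52, adjusted p = 9.48e-07), RRP15 (-3.21, adjusted p = 3.67e-05), UTP23 (-3.11, adjusted p = 2.03e-06) and NOL10 (-2.99). IMP3, IMP4, NOB1, GNL3 and UTP4 were called higher but lost the call without blastocyst C (IMP3 then 0.79, adjusted p = 0.139; NOB1 0.53, adjusted p = 0.353). In 15 genes blastocyst libraries were all above and in 12 all below the oocyte libraries, against 25.2% and 44.7% of all genes. Quantile normalization gave 20 higher and 9 lower members, and median-ratio factors 20 and 10.

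Genes of ribosome synthesis outside the symbol rule were read from lists made for this work, again with earlier results known. Over all genes tested 15.4% rose and 30.7% fell at the 16-cell step, where 4 of 16 RNA polymerase I genes rose and 3 fell: POLR1E, a polymerase subunit, was at 33.997 and then at 269 RPM (2.80, adjusted p = 0.000137), and POLR1B, the second-largest subunit, at 6.77 and then at 1.02 RPM (-2.02, adjusted p = 0.000220). Of 13 genes of the RNA exosome 5 rose and 2 fell. EXOSC1, a cap subunit, stood at 1.43 and then at 128 RPM (5.73, adjusted p = 1.53e-07), and DIS3, the nuclease, at 92.8 and then at 35.0 RPM (-1.46, adjusted p = 0.00482). Of 28 other small-subunit factors 12 rose and 5 fell, with WDR36, a UTP-B subunit, at 1.77 and then at 42.4 RPM (3.85, adjusted p = 2.12e-07) and NAT10, the rRNA acetyltransferase, at 57.2 and then at 14.1 RPM (-2.18, adjusted p = 0.00196). Of 31 other large-subunit factors 7 rose and 4 fell. WDR12, the PeBoW partner of PES1 and BOP1, stood at 0.249 and then at 52.7 RPM (5.32, adjusted p = 1.29e-07), whereas PES1 and BOP1 did not pass the test. Some calls of these lists at the 16-cell step were lost when single libraries were left out. Among them were the rises of BRIX1, EXOSC5 and MPHOSPH10 and the falls of UBTF, MTREX, HEATR1, ESF1, NVL and SBDS. From morula to blastocyst 9 of the 16 polymerase genes, 8 of the 13 exosome genes, 22 of the 28 small-subunit and 18 of the 31 large-subunit factors fell, and none of these rose, where 28.1% of all genes tested fell and 7.74% rose.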

How the data were processed

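The authors deposited 1 table of RPKM values with 19040 genes and 21 libraries, per the file headers. The submitters' processing notes name FastQC, STAR 2.5.3a and Partek without a role. The sources used here do not give the genome build, strand, counting rule or treatment of reads shared by similar genes. The deposited RPKM values carried an offset of 0.01 and were divided by the whole gene span, introns included, so the offset was removed and values were multiplied by the span to give RPM. Steps between low values gave the worth of 1 read and so the depth: of 578 member values up to 500 reads, 96.0% were whole within 0.05 reads. The exceptions were NOL3 and a few values of NOP9. NOL3, NOP9, IMP4, GNL2 and EBNA1BP2 overlap another gene, so their values are uncertain. RefSeq symbols matched 47 of the 49 names, and no sequence was used.

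The test was limma 3.58.1 (R 4.3.3, trend and robust) on log2(RPM + 1) with 7 stages, two-sided and tested on simulated data, with Benjamini-Hochberg adjustment over all genes tested and calls at an adjusted p below 0.05 and a change of 1 or more. Members, role groups and lists were chosen with earlier results of these data known. Values by library, or ranges over several stages, are given for the snoRNP members. They are also given for many of the called members with the largest changes and no overlap, up to 4 rises and 4 falls per comparison. Members whose course differs from their role group are described as well, and some others are named as examples. Alternatives were pseudocounts of 0.1 and 5, other filters, quantile and median-ratio scaling, array weights, the deposited RPKM scale, scaling to reads in listed genes (chosen after seeing the data), a replicate block, and leaving out each library. Tables were made in Python 3.11.15 with pandas 2.3.3 and numpy 2.4.6, and figures with matplotlib 3.10.9.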

Additional observations from a re-analysis of the deposited data

How the results depend on the processing

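No member called here reversed its direction under any alternative run. On the deposited RPKM scale, where 28 members pass the filter, the numbers called were 3 from 16-cell to morula, 15 from morula to blastocyst, 2 from oocyte to 2-cell, 11 from oocyte to blastocyst and 28 at any stage, compared with 6, 27, 7, 26 and 45 here. Quantile normalization gave 15 from morula to blastocyst and 1 from oocyte to 2-cell, and median-ratio factors gave 16 and 3. Array weights, whose fit stopped before its tolerance was met, gave 14 from morula to blastocyst and 5 from 4-cell to 8-cell. From oocyte to 2-cell a pseudocount of 0.1 gave 11, a pseudocount of 5 gave 4 and a filter of 5 RPM gave 3, and the pseudocount of 5 gave 16 from oocyte to blastocyst. Without libraries C of the 16-cell and morula stages the numbers of 47 were 27 from 8-cell to 16-cell (55.2% of all genes tested), 8 from 16-cell to morula (28.8%), 29 from morula to blastocyst (33.1%) and 10 from oocyte to 2-cell (19.8%). The cause of these differences in number was not tested. Some of these alternatives also tested fewer genes or samples. Leaving out each library gave 24 to 27 calls from 8-cell to 16-cell, 1 to 11 from 16-cell to morula, 24 to 29 from morula to blastocyst, 27 to 31 from 8-cell to morula, 2 to 11 from oocyte to 2-cell, 23 to 27 from oocyte to blastocyst, 44 to 46 at any stage, and 0 from 2-cell to 4-cell and from 4-cell to 8-cell. Levels of a few reads limit genes such as RRS1, whose 16-cell change was 4.00 with a pseudocount of 0.1 and 0.71 with one of 5.

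The letters A to C are shared between stages. Residuals of libraries with the same letter had a median correlation of 0.00341 (-0.301 to 0.388 over 63 pairs), against -0.00356 for other letters over 126 pairs. The labels state no pairing by letter. A fit with the letter as a replicate block gave the same numbers of called members, 26 from 8-cell to 16-cell among them.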
